A study of Homo sapiens with 56 samples.

Results

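Chromosome 9 was compared between 4 mantle cell lymphoma cell lines through the expression of its protein-coding genes. The chromosome was selected because its genes were higher in the line MINO-VR than in the line MINO-P in these same libraries, so every MINO-VR minus MINO-P value below is a description and carries no test. A gene was a member when it lay on chromosome 9, was protein-coding and reached at least 1 CPM (reads of a gene scaled to one fixed total per library) in 5 or more of the 56 libraries. Of 626 protein-coding rows of chromosome 9, 513 were members, among 15225 genes of the whole table that passed the same filter and 12836 of these that were protein-coding. At the edge of the rule, 6 members passed in exactly 5 libraries, with a highest value of 6.61 CPM, and 3 genes with 4 such libraries stayed out, with a highest value of 2.92 CPM.

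Mantle cell lymphoma is a B-cell malignancy that usually carries a translocation raising cyclin D1, and its genomes are rich in gains and losses of chromosome arms. On the short arm, 9p, lie CDKN2A and CDKN2B, inhibitors of the cell cycle kinases that pair with cyclin D1, and this locus is a known site of loss in the disease. The long arm, 9q, holds genes such as the receptor NOTCH1, the kinase ABL1 and the endoplasmic reticulum chaperone HSPA5. When the number of copies of a chromosome segment differs between related cells, the transcripts of many of its neighbouring genes often differ in the same direction. DNA copy number was not analysed here, and the values are of RNA.

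RNA was sequenced in 15 libraries of MINO-P, 13 of MINO-VR, 15 of JEKO-1 and 13 of Z138, all labelled as mantle cell lymphoma lines. The meaning of P and VR is not given in the labels, nor is the way in which MINO-VR was obtained. The RNA is from bulk cultures, in which fewer cells and less RNA per cell cannot be told apart. Treatments are given by the codes of the labels: CON, CLF, BTZ, IBR, YM155, S63845, BTZ_CLF, BTZ_YM155, BTZ_S63845, IBR_CLF, IBR_YM155 and IBR_S63845. By the design text of the series, YM155 and S63845 were given alone and combined with agents named there as PI and BTKi; CON and the other codes are not spelled out. S63845 is an inhibitor of the survival protein MCL-1, and YM155 is known to lower BIRC5 (survivin). MINO-VR and MINO-P shared 9 treatments (12 and 13 libraries), JEKO-1 and MINO-P shared 8 (15 and 12), Z138 and MINO-P shared 8 (13 and 12), and JEKO-1 and Z138 shared 7 (13 and 12). Lines were always compared within a treatment, and a difference is the mean over shared treatments of the difference in log2(CPM + 1). A relative difference has the median of the protein-coding genes of the other chromosomes subtracted in each treatment. The labels do not say whether libraries of one line and treatment came from separate cultures, so the p-values measure only the spread between these libraries.

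All 4 lines held B-cell and mantle cell lymphoma transcripts: median MS4A1, which encodes CD20, was 256 to 616 CPM, CCND1 685 to 1816 CPM and SOX11 79.8 to 473 CPM by line. Medians by line of the T-cell markers CD3D, CD3E and CD2 were at most 0.183 CPM, and CD3D reached 3.72 CPM in 1 JEKO-1 library. Of the myeloid markers, LYZ reached 11.4 CPM in a MINO-VR library. The epithelial marker EPCAM had medians by line of 1.17 to 7.99 CPM and reached 20.8 CPM in a MINO-P library, and KRT8 had medians of 0 except in JEKO-1 (1.46 CPM). Depth, recovered from the steps between low values, ran from 5524911 to 21621697 reads per library, so 3 reads were worth 0.139 to 0.543 CPM. The share of reads from mitochondrial genes was 1.91% to 80.5% in JEKO-1, 2.17% to 29.0% in MINO-P, 3.19% to 16.1% in MINO-VR and 3.43% to 8.62% in Z138. Since CPM shares a fixed total, this share moved the scale of the JEKO-1 comparisons: the median of all genes tested was -0.41 in JEKO-1 minus MINO-P and -0.03 with mitochondrial genes left out. JEKO-1 BTZ replicate 3 stood apart from the other 14 JEKO-1 libraries on chromosome 9, and the JEKO-1 windows, runs and counts of called members are therefore also given without it. Its mitochondrial share was 9.92%, against 67.6% and 67.5% in the other JEKO-1 BTZ libraries; the part of this in its chromosome 9 values was not tested.

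Reference promoter sequences are shown for 4 members on which the results turn: FKBP15, the first member of the distal 9q interval described next; TOR4A, the member with the largest MINO-VR excess; PSAT1, nearly undetected in MINO-VR; and CDKN2B, undetected in Z138. They are RefSeq sequences of build GRCh38.p14, from 250 bases before to 50 after the gene's start, and were not read from these cell lines. Capitals mark a motif on either strand: the core of the GC box (GGGCGG), the box named for its letters CCAAT, or the TATA box (TATAAA).
FKBP15: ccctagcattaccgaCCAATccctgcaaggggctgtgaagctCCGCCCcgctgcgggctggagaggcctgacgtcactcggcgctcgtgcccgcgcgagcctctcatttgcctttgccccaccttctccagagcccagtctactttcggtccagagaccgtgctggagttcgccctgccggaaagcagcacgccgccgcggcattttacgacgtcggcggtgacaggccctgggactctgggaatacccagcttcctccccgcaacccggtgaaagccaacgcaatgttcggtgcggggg
TOR4A: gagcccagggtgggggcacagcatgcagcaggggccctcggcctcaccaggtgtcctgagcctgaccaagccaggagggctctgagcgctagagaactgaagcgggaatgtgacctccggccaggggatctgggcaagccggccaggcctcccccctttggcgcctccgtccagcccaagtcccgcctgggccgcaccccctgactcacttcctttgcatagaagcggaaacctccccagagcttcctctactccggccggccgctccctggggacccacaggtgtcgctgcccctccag
PSAT1: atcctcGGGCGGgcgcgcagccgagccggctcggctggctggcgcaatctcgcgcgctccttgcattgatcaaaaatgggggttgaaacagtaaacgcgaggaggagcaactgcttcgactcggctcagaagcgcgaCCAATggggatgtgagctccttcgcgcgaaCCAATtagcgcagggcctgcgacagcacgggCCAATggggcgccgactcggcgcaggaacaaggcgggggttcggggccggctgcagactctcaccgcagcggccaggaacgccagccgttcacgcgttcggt
CDKN2B: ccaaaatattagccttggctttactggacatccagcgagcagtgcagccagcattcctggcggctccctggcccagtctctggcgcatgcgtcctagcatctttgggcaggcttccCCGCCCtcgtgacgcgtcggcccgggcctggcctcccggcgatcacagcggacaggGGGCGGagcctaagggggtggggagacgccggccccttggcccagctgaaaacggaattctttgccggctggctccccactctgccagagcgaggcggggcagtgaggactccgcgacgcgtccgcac
FKBP15 lies on the minus strand (chr9:113221228-113221527), TOR4A on the plus strand (chr9:137277476-137277775), PSAT1 on the plus strand (chr9:78296875-78297174) and CDKN2B on the minus strand (chr9:22009256-22009555). Of the 513 members, 452 matched the promoter table. The GC box core occurred in 75.2% of member promoters and in 44.7% of the table's 27195 promoters. The CCAAT box occurred in 34.1% against 35.7%, and the TATA box in 5.31% against 12%. The promoter table was not limited to protein-coding or expressed genes, as the members are. The sets are thus unlike, and these shares are not read as a trait of chromosome 9. Within chromosome 9 the share with the GC box core was 79.8% for 9p, 74.6% for proximal 9q and 73.4% for distal 9q, the segments described next. The median GC content of the promoters was 64.5%, 66.8% and 68.7% in the same order.

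Expression along chromosome 9 was higher in MINO-VR than in MINO-P over the end of the long arm, near equal to slightly lower over 9p, and intermediate between. In windows of 10 Mb (hg38) with at least 5 members, the median relative difference was 0.05 at 0 to 10 Mb (25 members), -0.13 at 10 to 20 Mb (12), -0.01 at 20 to 30 Mb (13) and -0.12 at 30 to 40 Mb (67). The windows at 10 to 20, 20 to 30 and 30 to 40 Mb were above 0 in 1, 0 and 1 of 9 treatments. On 9q the median relative difference lay between 0.08 and 0.25 in the 5 windows from 60 to 110 Mb. It was 0.41 at 110 to 120 Mb (39 members), 0.67 at 120 to 130 Mb (110) and 0.75 at 130 to 140 Mb (115). The last window ranged from 0.32 to 0.96 over the 9 treatments, and the 3 windows from 110 to 140 Mb were each above 0 in 9 of 9 treatments.

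**Figure D1:**
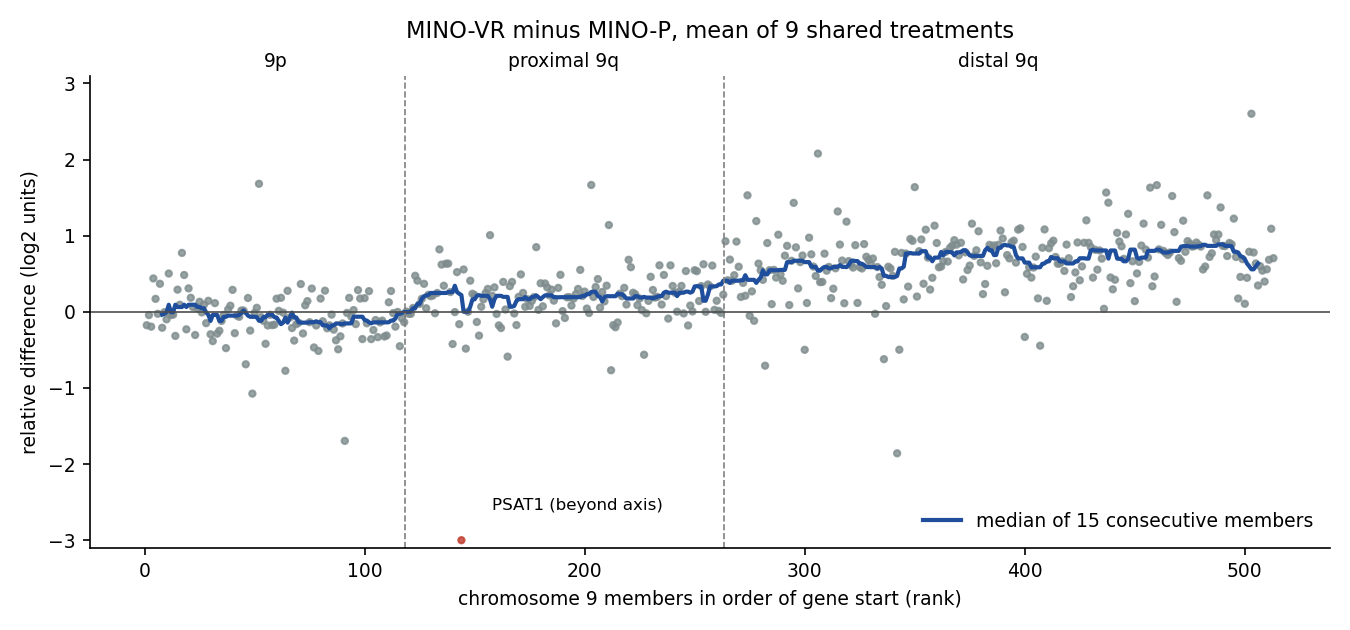
Relative difference of MINO-VR minus MINO-P (y axis, log2 units) for each of the 513 members in order of gene start (x axis, rank); grey points are members, the line is the median of 15 consecutive members, and dashed lines divide 9p, proximal 9q and distal 9q. The line has its lowest value, -0.22, on 9p and reaches 0.89 on distal 9q. PSAT1, in red, lies below the axis and is drawn at its edge.

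The members were divided in 3 segments. The arms were split at the largest gap between neighbouring starts, 24.5 Mb, between ZNG1F (chr9:41131306-41199262) and ZNG1E (chr9:65668805-65734042). These are near-identical paralogs, so their own values are uncertain. Along the chromosome, the run of at least 10 consecutive members that best split the members by mean was sought, with the higher mean inside. The score was the squared difference of the means, weighted by the numbers of members inside and outside. The border was thus fitted to the MINO-VR minus MINO-P differences of these members. A higher distal value in any split by segment below is therefore partly built in. The run began on 9q with FKBP15 (chr9:113161006-113221459) and ended with EHMT1 (chr9:137618992-137870017), the last member of the chromosome. This run, called distal 9q, spans 24.7 Mb and holds 250 members; proximal 9q holds 145 and 9p holds 118. The mean difference was 0.69 inside the run and 0.08 outside it, or 1.61-fold and 1.05-fold on the CPM + 1 scale. The member next to it outside, SLC31A2 (chr9:113150976-113164141), a copper transporter family gene with a MINO-P median of 0.462 CPM, overlaps FKBP15, and reads from the overlap cannot be told apart without strand. The run began at the same gene with a minimum mean of 10 CPM, with mitochondrial genes left out and in the libraries with MCL names alone. It began 1 member earlier, at SLC31A2, with a pseudocount of 0.1 CPM. Running medians of 15 members inside the run lay between 0.38 and 0.89, and those outside it between -0.22 and 0.34.

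The median relative difference was -0.07 for 9p, 0.20 for proximal 9q and 0.70 for distal 9q (1.62-fold). Over the 9 treatments its SD was 0.07 for 9p, 0.14 for proximal 9q and 0.15 for distal 9q. In distal 9q it was 0.89 in CON, 0.79 in BTZ, 0.77 in BTZ_CLF, 0.73 in CLF, 0.72 in YM155, 0.69 in IBR_CLF, 0.55 in IBR, 0.55 in S63845 and 0.39 in BTZ_YM155. Every treatment was thus on the same side of 0, and the lowest was BTZ_YM155. On proximal 9q the same value ran from 0 in BTZ_YM155 to 0.34 in BTZ. In both MINO lines the CON, CLF, BTZ and BTZ_CLF libraries all had HK names. Those of the other shared treatments all had MCL names, so treatment and name series cannot be told apart in these values. Of the 250 distal members, 240 had a positive mean difference and 136 (54.4%) were higher in MINO-VR in every treatment, against 6.95% of the 12323 protein-coding genes of other chromosomes. The corresponding counts were 14 of 145 on proximal 9q and 1 of 118 on 9p. By chromosome, the median relative difference of chromosome 9 was 0.34, the highest of 23; chromosome 13 was next at 0.14 and chromosome 2 was lowest at -0.30.

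**Figure D2:**
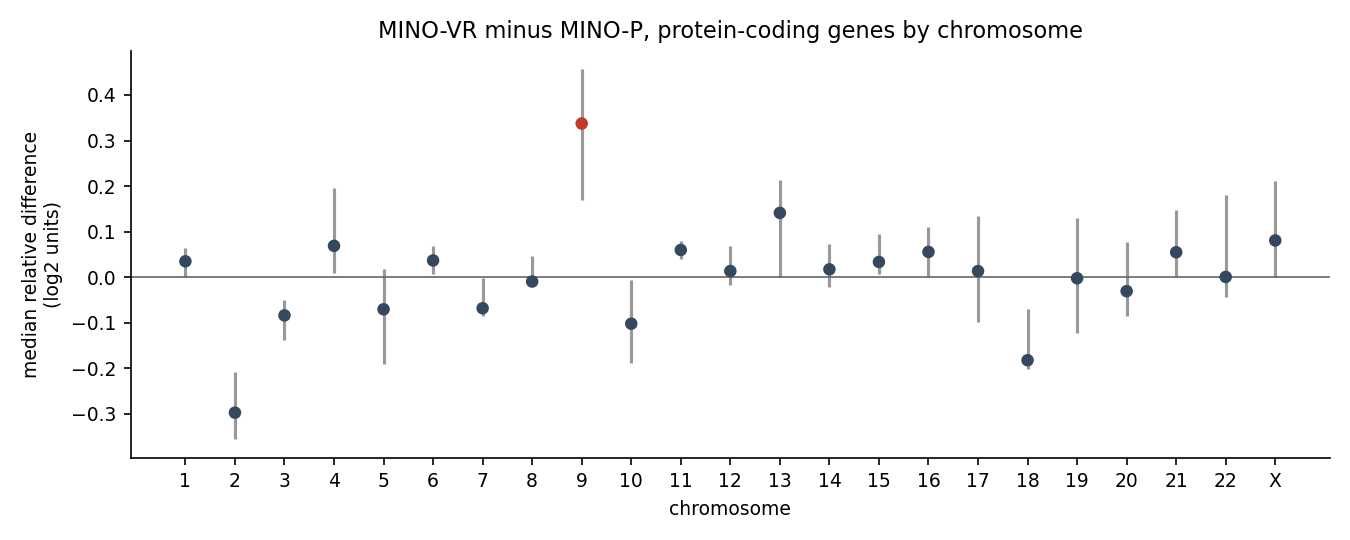
Median relative difference of MINO-VR minus MINO-P over the protein-coding genes of each chromosome (y axis, log2 units), with bars from the lowest to the highest of the 9 shared treatments. Chromosome 9, in red, is at 0.34, and its lowest treatment is at 0.17.

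The difference was smaller for members of low level. Distal members with a mean under 1 CPM had a median relative difference of 0.17 (19 members), those of 1 to 10 CPM 0.57 (48), those of 10 to 100 CPM 0.76 (151), and those of 100 CPM or more 0.72 (32). The added 1 CPM understates the change of low genes. On 9p the same 4 classes were all between -0.15 and -0.04. The 27 non-coding rows that lie in the distal run had a median of 0.34, and 22 of them were above 0.

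Level was also read in single libraries, as the median over the members of a segment against the MINO-P mean, relative to the other chromosomes. On distal 9q the 15 MINO-P libraries ran from -0.25 to 0.29 (median 0.07), and the 13 MINO-VR libraries from 0.55 to 0.80 (median 0.71), so the lines did not overlap. The 4 MINO-P libraries with HK names were from -0.25 to -0.04 and the 11 with MCL names from -0.06 to 0.29, while in MINO-VR the 2 name series covered 0.55 to 0.79 and 0.55 to 0.80. Within the HK names alone the median relative difference of distal 9q was 0.84, and within the MCL names alone 0.57. On proximal 9q MINO-P ran from -0.14 to 0.11 and MINO-VR from 0.06 to 0.35, with overlap. On 9p the lines overlapped, at -0.10 to 0.17 in MINO-P and -0.10 to 0.03 in MINO-VR. JEKO-1 was from 0.51 to 0.77 on distal 9q in 14 libraries and -0.68 in BTZ replicate 3. On proximal 9q those 14 libraries ran from 0.78 to 1.13 and BTZ replicate 3 was at 1.60. Z138 was from 0.02 to 0.20 on distal 9q, within the MINO-P range.

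**Figure D3:**
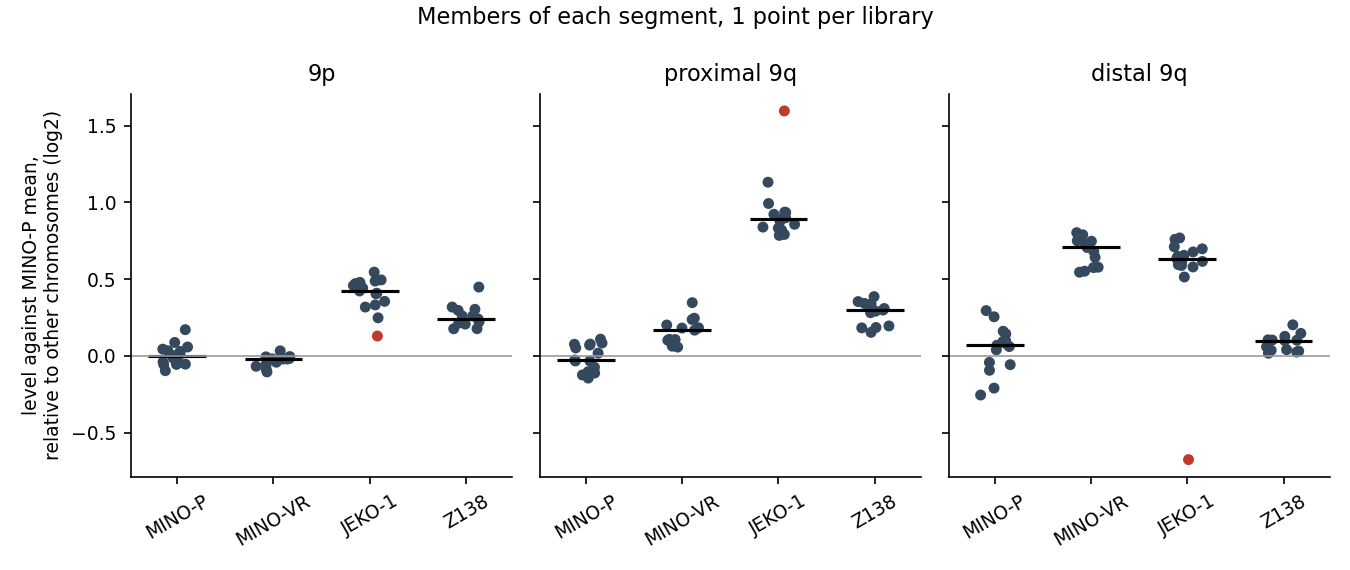
Level of each segment in every library (y axis, log2 units against the MINO-P mean and relative to other chromosomes), by line; each point is a library and each bar the median of the line. On distal 9q the MINO-VR points, from 0.55 to 0.80, all lie above the MINO-P points, from -0.25 to 0.29; JEKO-1 BTZ replicate 3 is in red.

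In the fit across all genes, 226 of the 513 members were called higher in MINO-VR, against 14.1% of all genes tested, and 10 were called lower, against 8.30%. Of these, 190 higher and 3 lower lay on distal 9q, 29 and 2 on proximal 9q, and 7 and 5 on 9p (6 and 6 without the mitochondrial genes, 7 and 9 under size factors). Nothing is read from these counts, since the chromosome was selected on this contrast. Every MINO-VR library was above every MINO-P library for 11 of 250 distal members, against 0.177% of all genes tested: ARRDC1, FNBP1, GLE1, NELFB, NPDC1, PTPA, REXO4, TOR1A, TOR4A, URM1 and USP20. The reverse held for 1 member, PSAT1, against 0.138% of genes.

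TOR4A, a member of the torsin ATPase family (chr9:137277726-137282642), had the largest excess by the rule for named genes. Its level was 4.78, 12.4 and 26.6 CPM (lowest, median and highest) in MINO-P and 42.7, 75.7 and 103 CPM in MINO-VR, with no overlap. The difference was 2.62 ± 0.52 (SD over 9 treatments). In JEKO-1 the median was 21.9 CPM and in Z138 2.70 CPM, so Z138 was the lowest line for this gene. The other 9 were TDRD7 (1.68 ± 0.84), a Tudor domain protein of germ granules; CARD9 (1.68 ± 0.53), an adaptor of innate immune signalling; ENG (1.65 ± 0.64), a TGF-beta co-receptor; CCDC187 (1.65 ± 1.20); SLC2A6 (1.58 ± 0.49), a hexose transporter; RGS3 (1.55 ± 0.70), a regulator of G protein signalling; ADAMTSL2 (1.45 ± 0.72), an extracellular matrix protein; LRRC26 (1.39 ± 0.86), a potassium channel subunit; and PPP1R26 (1.30 ± 0.43). All were positive in 9 of 9 treatments, and of the 10 only TDRD7 lay on proximal 9q.

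The genes at the ends of the distal run were as follows. FKBP15, an FK506-binding family protein of endosomes, was at 14.2, 28.0 and 48.9 CPM in MINO-P and at 33.8, 54.8 and 89.0 CPM in MINO-VR, a difference of 0.94 ± 0.25. EHMT1, a histone H3 lysine methyltransferase at the far end, was at 48.5, 78.0 and 158 CPM against 103, 136 and 233 CPM, a difference of 0.72 ± 0.29. Both pairs of ranges overlapped, and both genes were higher in 9 of 9 treatments.

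Genes of B-cell identity and signalling were spread over all 3 segments. NOTCH1, a receptor mutated in part of mantle cell lymphoma, was at 57.8, 153 and 270 CPM in MINO-P and 69.8, 250 and 425 CPM in MINO-VR (difference 0.79 ± 0.40, 9 of 9 treatments). The signal adaptors TRAF2 and TRAF1 differed by 0.93 ± 0.39 and 1.45 ± 0.93, and the guanine nucleotide exchange factor VAV2 by 1.05 ± 0.56. ABL1 differed by 0.74 ± 0.31 and the pattern receptor TLR4 by 1.03 ± 0.73. SYK, the kinase downstream of the B-cell receptor, lies on proximal 9q and differed by 0.35 ± 0.26. PAX5, the B-cell master transcription factor on 9p, differed by -0.09 ± 0.64. Of 13 measured genes of this list, 7 were called higher and 0 lower, against the 14.1% and 8.30% of all genes given above, with a median relative difference of 0.91 over 9 distal members, 0.16 over 2 proximal members and -0.24 over 2 members of 9p.

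The other 4 functional lists had the same order of segments. Nothing is read from this order, since the distal run was fitted to the same values of these members. For DNA repair and cell division the medians were 0.64 on distal 9q (6 members), 0.11 on proximal 9q (8) and -0.18 on 9p (4); CDK9, the kinase that releases paused RNA polymerase, differed by 0.97 ± 0.27. For protein folding and degradation they were 0.81 (6), 0.17 (2) and -0.12 (6). Here the proteasome subunit PSMB7 differed by 0.69 ± 0.26 and TOR1A by 0.95 ± 0.33, while the proteasome assembly factor PSMD5, also distal, differed by 0.10 ± 0.19 and VCP, on 9p, by 0.19 ± 0.31. HSPA5 differed by 0.91 ± 1.02, with levels of 215, 852 and 3792 CPM in MINO-P and 654, 1631 and 3956 CPM in MINO-VR. For ribosome, RNA and translation the medians were 0.73 (10), 0.28 (2) and -0.02 (5). The ribosomal protein gene RPL7A (distal) differed by 0.92 ± 0.49 and RPS6 (9p) by -0.03 ± 0.33; GLE1, an mRNA export factor, differed by 0.92 ± 0.24. For mitochondria and metabolism they were 0.80 (11), 0.47 (4) and -0.11 (6), with SURF1, an assembly factor of cytochrome c oxidase, at 0.87 ± 0.29 and the prostaglandin synthase PTGES2 at 1.15 ± 0.34. The counts called higher and lower were 5 and 0 of 18, 5 and 0 of 14, 9 and 0 of 17, and 12 and 1 of 21 in this order, again against 14.1% and 8.30% of all genes tested. Nothing is read from these counts either.

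In MINO-VR 7 of the 513 members were lower in every treatment, against 598 of the 12323 protein-coding genes of other chromosomes. The 5 of these members with a mean of at least 5 CPM are named here. PSAT1, which encodes an enzyme of serine synthesis (chr9:78297125-78330094, proximal 9q), was at 21.3, 90.4 and 149 CPM in MINO-P. In MINO-VR it was listed at 0 in 8 of 13 libraries and did not exceed 0.269 CPM, and 10 of 13 libraries were at or under the value of 3 reads. The 10 Mb window from 70 to 80 Mb, which holds PSAT1, had a median of 0.25. In JEKO-1 and Z138 its medians were 115 and 88.0 CPM. NIBAN2, a regulator of cell survival inside the distal run, was at 6.12, 9.93 and 24.4 CPM in MINO-P and 0.535, 2.20 and 7.70 CPM in MINO-VR (difference -1.84 ± 0.69). The other 3 were CDKN2B (-0.67 ± 0.43), the corepressor TLE1 (-0.47 ± 0.30) and the ubiquitin ligase receptor DCAF12 (-0.36 ± 0.26).

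On 9p the cell cycle inhibitor CDKN2A was at 83.9, 164 and 240 CPM in MINO-P and 85.6, 166 and 269 CPM in MINO-VR, a difference of 0.03 ± 0.42. Its neighbour MTAP, an enzyme of methionine salvage, differed by 0.03 ± 0.27. Of 6 measured genes of the 9p21 list, 0 were called higher and 1 lower, against 14.1% and 8.30% of all genes. The 9p24 list, with JAK2 and the PD-1 ligands, had a median relative difference of 0.29, and 3 of 7 were called higher and 0 lower, against the same shares. CD274, which encodes PD-L1, was at 0.610, 3.99 and 12.0 CPM in MINO-P and 2.30, 6.71 and 19.5 CPM in MINO-VR, and the chromatin remodeller SMARCA2 differed by 0.38 ± 0.27.

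JEKO-1 and Z138 showed other patterns along the same members. Both were set against libraries of MINO-P that also served in the comparison above, so the comparisons are not independent. All JEKO-1 and Z138 libraries had MCL names, while the MINO-P libraries of CON, CLF, BTZ and BTZ_CLF all had HK names. In those treatments line and name series cannot be told apart. On distal 9q the median relative difference of Z138 minus MINO-P was 0.30 in BTZ, 0.24 in CON and 0.08 in CLF. In its other shared treatments it ran from -0.03 in IBR to 0.15 in YM155. In JEKO-1 minus MINO-P the median relative difference was -0.20, -0.18 and -0.13 in the 3 windows from 0 to 30 Mb and 0.67 at 30 to 40 Mb. In the windows of at least 5 members from 60 Mb on it was above 0.50, with 1.03 at 90 to 100 Mb, 1.28 at 100 to 110 Mb and 1.11 at 110 to 120 Mb, and was lower again at 120 to 130 Mb (0.61) and 130 to 140 Mb (0.53). Without JEKO-1 BTZ replicate 3 the same windows were -0.21, -0.20, -0.23, 0.72, 0.99, 1.23, 1.11, 0.70 and 0.58. The run by the same rule began with TOMM5 (start 37582646) on 9p and ended with RALGPS1 (start 126914774). It had a mean relative difference of 0.99 over 225 members against 0.35 outside. Without BTZ replicate 3 it began 1 member earlier, at FBXO10, ended at the same gene and had a mean of 0.98 against 0.40. It thus began on the short arm and ended inside distal 9q, whereas the run between the MINO lines lay on 9q and reached the last member. Chromosome 9 was again the highest of 23 chromosomes, at 0.67, and at 0.70 without BTZ replicate 3.

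In this comparison 137 of 513 members were higher in JEKO-1, against 9.94% of all genes tested, and 68 were lower, against 35.2%. With mitochondrial genes left out, 283 were higher, against 22.2% of all genes, and 36 lower, against 20.4%. Without BTZ replicate 3, 155 were higher, against 11.1% of all genes, and 77 lower, against 40.7%. Proximal 9q held 61 higher and 5 lower of 145 members, distal 9q 57 and 34 of 250, and 9p 19 and 29 of 118. Without BTZ replicate 3 these were 63 and 7, 69 and 38, and 23 and 32. With mitochondrial genes left out they were 105 and 2, 125 and 17, and 53 and 17, so that on 9p the balance of calls turned from lower to higher; it did so with size factors too (50 and 19). GDA, guanine deaminase, was at 1.24, 11.8 and 214 CPM in JEKO-1 and did not exceed 0.0624 CPM in MINO-P (limma adjusted p = 1.9e-07). Of these 2 lines only JEKO-1 reached the 1 CPM of the filter, and GDA was chosen as a largest rise. Its p-value is therefore not read as support. GCNT1, a glycosyltransferase of mucin-type glycans, was at 2.89, 14.6 and 132 CPM against 0, 0.399 and 4.21 CPM and rose by 3.47 ± 0.38 (SE; limma adjusted p = 9.9e-08). OLFML2A, an extracellular matrix protein, rose by 2.90 ± 0.38 (limma adjusted p = 1.2e-06). CRAT, carnitine acetyltransferase, was at 6.50, 18.2 and 33.8 CPM in MINO-P and at or under 2.57 CPM in JEKO-1 (limma adjusted p = 8.4e-14). TPM2, a tropomyosin, fell by 3.76 on the log2 scale (SE 0.22, limma adjusted p = 8.8e-13) and FNBP1, a membrane-bending adaptor, by 2.83 (SE 0.27, limma adjusted p = 1.1e-08). All these log2 changes are on the deposited scale, where the median of all genes tested was -0.41. The first 2 genes lie on proximal 9q, and OLFML2A, CRAT and FNBP1 on distal 9q, where calls went both ways. Without BTZ replicate 3 the 6 genes stayed past the threshold.

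On 9p, JEKO-1 was lower for 5 of 7 genes of the 9p24 list and higher for 0, and lower for 4 of 6 and higher for 0 of the 9p21 list, against 9.94% of all genes higher and 35.2% lower; both counts were the same without BTZ replicate 3. With mitochondrial genes left out, 2 of 7 and 4 of 6 were lower and 0 higher. JAK2 was at 1.66, 6.06 and 12.4 CPM in JEKO-1 and at 7.59, 14.8 and 24.2 CPM in MINO-P. It fell by 1.49 (SE 0.24, limma adjusted p = 1.9e-05) on the deposited scale, where the median of all genes tested was -0.41. CDKN2A was still present at 16.5, 82.6 and 159 CPM and fell by 1.12 (SE 0.20, limma adjusted p = 6.4e-05). With mitochondrial genes left out CDKN2A fell by 0.58 (limma adjusted p = 0.0123). NOTCH1, at 9.84, 45.5 and 71.8 CPM, fell by 1.35 (SE 0.26, limma adjusted p = 0.0002), and with mitochondrial genes left out the NOTCH1 difference was -0.81, no longer past the threshold (limma adjusted p = 0.087). SMC2, a condensin subunit on proximal 9q, was at 20.9, 137 and 322 CPM against 14.6, 31.5 and 134 CPM and rose by 1.68 ± 0.33 (limma adjusted p = 0.00023).

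**Figure D4:**
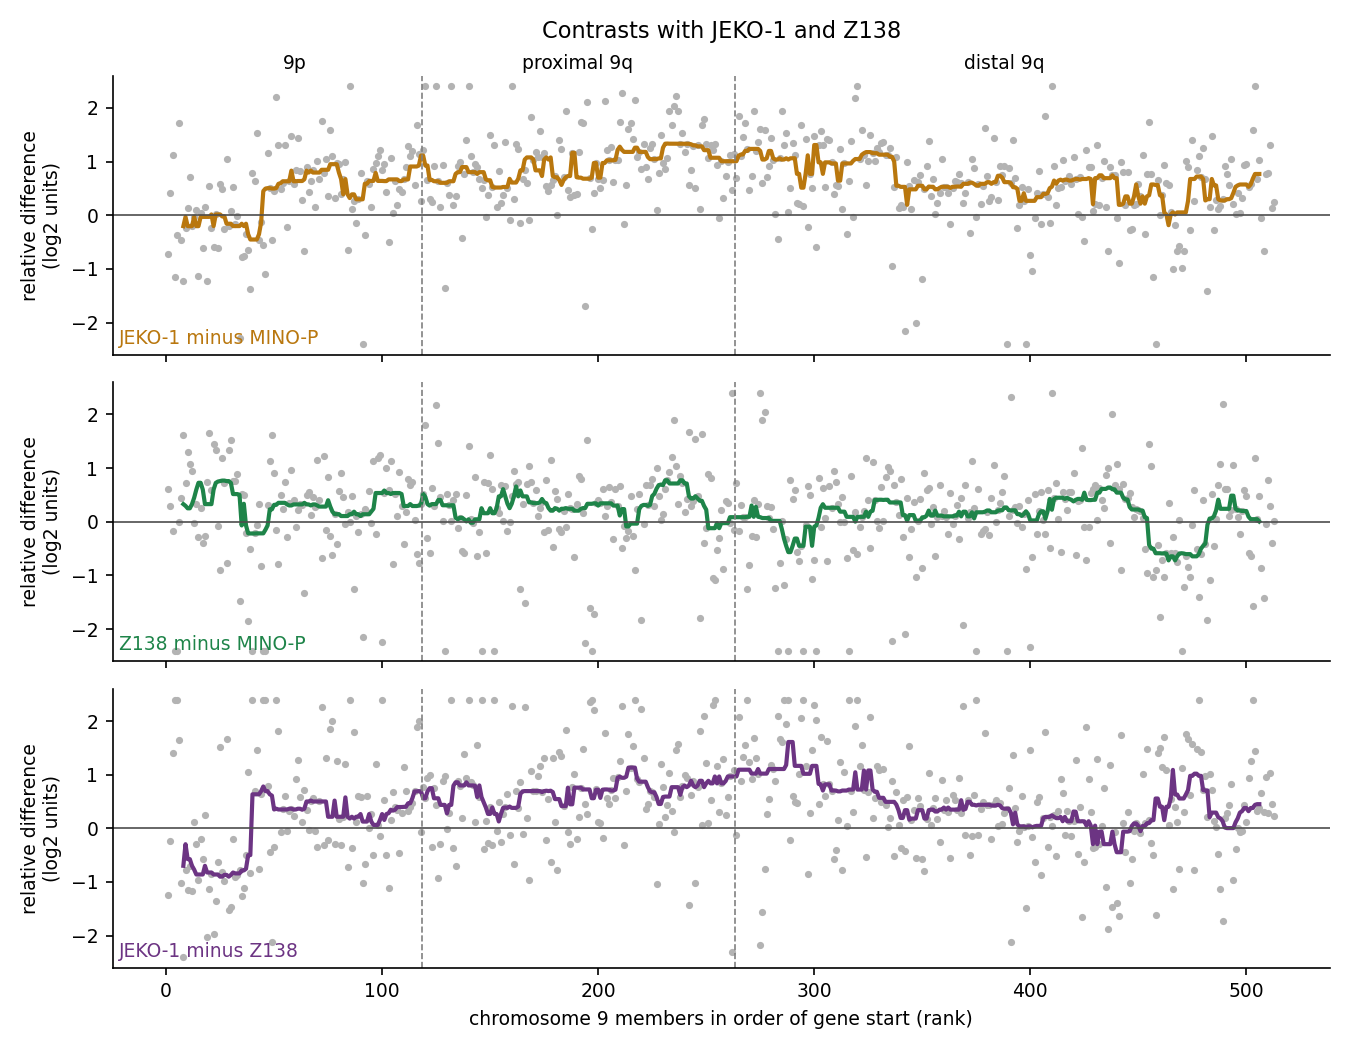
Relative differences (y axis, log2 units) of JEKO-1 minus MINO-P, Z138 minus MINO-P and JEKO-1 minus Z138 for the members in order of gene start (x axis, rank); points are members, values beyond the axis are drawn at its edge, and lines are medians of 15 consecutive members. The JEKO-1 minus MINO-P line steps up within 9p and peaks at 1.34, and the Z138 minus MINO-P line has its lowest value, -0.72, near the end of 9q.

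Z138 minus MINO-P had windows of both signs. The run by the same rule went from DMRT2 (start 1049858) to QSOX2 (start 136206333). Its mean relative difference was 0.12 over 451 members, against -0.38 outside. The median relative difference was 0.33 at 0 to 10 Mb, 0.74 at 10 to 20 Mb, -0.22 at 20 to 30 Mb and 0.62 at 100 to 110 Mb. It was 0.16 at 120 to 130 Mb and 0.20 at 130 to 140 Mb. The highest running median, 0.77, was from TEX10 to FSD1L and the lowest, -0.72, from CCDC187 to LCN8. Chromosome 9 had rank 5 of 23 chromosomes, at 0.24. Of the members, 187 were higher in Z138, against 24.9% of all genes tested, and 94 were lower, against 22.2%. ZNF618, a zinc finger protein, was at 16.0, 70.3 and 86.3 CPM in Z138 and 0, 2.78 and 9.23 CPM in MINO-P, with no overlap, and rose by 3.49 ± 0.30 (SE; limma adjusted p = 1.4e-08). IER5L, an immediate early response family gene, rose by 2.12 ± 0.36 (limma adjusted p = 7.3e-05) and LRRC26 by 2.05 ± 0.34 (limma adjusted p = 6e-05).

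In Z138, 6 members of 9p and proximal 9q had medians under 0.5 CPM while each other line had at least 3 CPM. How many of all genes tested meet this rule was not counted, so the number is not read as a trait of chromosome 9. These 6 are listed because they were near 0 in Z138, so their p-values below add no support. CDKN2A was listed at 0 in 12 of 13 Z138 libraries and at 0.387 CPM in the other one (limma adjusted p = 8.6e-18 against MINO-P). CDKN2B was listed at 0 in 13 of 13. Against the value of 3 reads in the shallowest Z138 library, 0.232 CPM, this was at least 70.2-fold lower than the MINO-P median of 16.3 CPM. MTAP, beside CDKN2A, was at 12.6, 49.0 and 69.6 CPM, against 16.6, 58.8 and 79.6 CPM in MINO-P, and fell by 0.64 (SE 0.23, limma adjusted p = 0.027). The MTAP call was lost with MCL names alone (limma adjusted p = 0.106) and without the BTZ, YM155 or IBR_YM155 library of either line (limma adjusted p = 0.0538 to 0.0649). DOCK8, a guanine nucleotide exchange factor of lymphocytes near the tip of 9p, did not exceed 1.52 CPM against a MINO-P median of 39.0 CPM (limma adjusted p = 2.5e-11). KANK1, its neighbour, did not exceed 1.37 CPM against 24.1 CPM (limma adjusted p = 5e-11), and GLIPR2, on 9p, did not exceed 1.36 CPM against 4.58 CPM (limma adjusted p = 2.2e-08). CDC14B, a mitotic phosphatase on proximal 9q, did not exceed 5.08 CPM against 35.9 CPM (limma adjusted p = 2.4e-10). VLDLR, a lipoprotein receptor between KANK1 and CDKN2A, was higher in Z138, at 28.4, 130 and 215 CPM against 8.54, 29.8 and 35.0 CPM, and rose by 1.73 ± 0.22 (limma adjusted p = 3.1e-06).

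**Figure D5:**
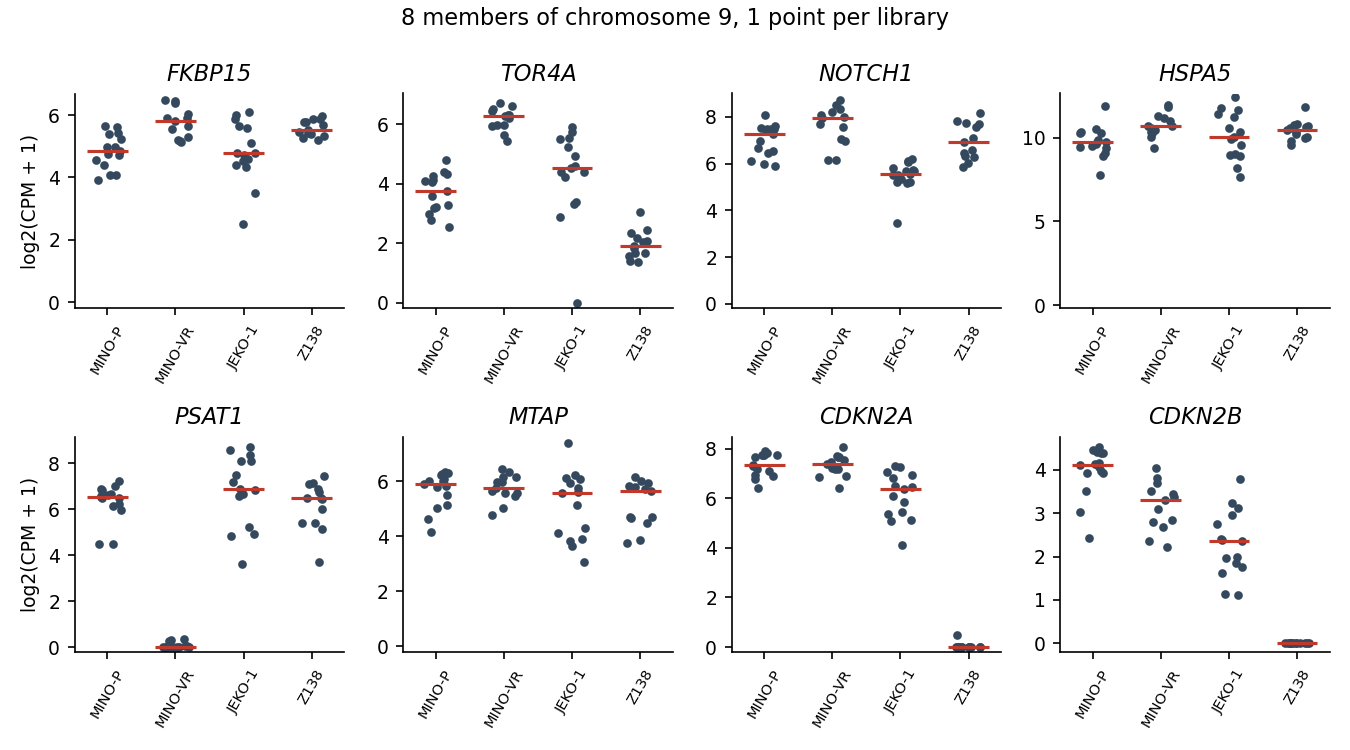
Level of 8 members in every library (y axis, log2(CPM + 1)) by line; points are libraries over all treatments and red bars are line medians. FKBP15 and TOR4A are higher in MINO-VR than in MINO-P, PSAT1 is at or near 0 in MINO-VR, and CDKN2A and CDKN2B are at or near 0 in Z138, while MTAP is not.

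The comparison of JEKO-1 with Z138 used no MINO library. Its median relative difference was -0.70 at 0 to 10 Mb and -0.88 at 10 to 20 Mb, then 0.69 at 20 to 30 Mb and 1.11 at 110 to 120 Mb, and 0.47 and 0.23 in the last 2 windows. Without JEKO-1 BTZ replicate 3 these were -0.74, -0.91, 0.73, 1.17, 0.52 and 0.29. The run by the same rule went from HACD4 (start 20999509) to LMX1B (start 126613928). Its mean relative difference was 0.78 over 293 members, against 0.17 outside. Without JEKO-1 BTZ replicate 3 the run had the same ends, with 0.78 against 0.24. Chromosome 9 was the highest of 23 chromosomes, at 0.45, and at 0.47 without that library. Higher in JEKO-1 were 141 members, against 15.7% of all genes tested, and lower were 99, against 33.4%. With mitochondrial genes left out the counts were 229, against 25.4%, and 67, against 24%. Without BTZ replicate 3 they were 159, against 17.8%, and 114, against 39.8%. CDKN2A rose by 6.49 ± 0.22 (SE, limma adjusted p = 1.3e-16), DOCK8 by 4.32 ± 0.38 (limma adjusted p = 2.8e-09) and GDA by 4.32 ± 0.48 (limma adjusted p = 1.4e-07). Each rose from a Z138 level at or near 0, so these log2(CPM + 1) differences depend on the added 1 CPM. The 3 genes were chosen as the largest rises, and the GDA p-value is again not read as support. VLDLR fell by 3.26 (SE 0.35, limma adjusted p = 8.6e-08), ZNF618 by 2.51 (SE 0.37, limma adjusted p = 8e-06) and IER5L by 2.36 (SE 0.43, limma adjusted p = 9.2e-05). For each of these 3 genes, chosen as the largest falls, Z138 had the highest median of the 4 lines.

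The functional lists were also counted in these comparisons, against the shares of all genes given above. For DNA repair and cell division, 12 of 18 genes were higher and 1 lower in Z138 than in MINO-P, and 5 and 0 in JEKO-1. For B-cell identity and signalling, 2 of 13 were higher and 9 lower in Z138, and 0 and 3 in JEKO-1. Among these, TLR4 was at 0, 1.80 and 6.09 CPM in Z138 against 6.10, 29.5 and 44.0 CPM in MINO-P, with no overlap, and fell by 3.37 (SE 0.30, limma adjusted p = 2.1e-08). TRAF1, at 0, 0.874 and 3.36 CPM, fell by 2.49 (SE 0.44, limma adjusted p = 0.00013). Protein folding and degradation had 9 higher and 1 lower of 14 in Z138 and 5 and 0 in JEKO-1. Ribosome, RNA and translation had 5 and 0 of 17 in Z138 and 3 and 1 in JEKO-1, and mitochondria and metabolism 4 and 3 of 21 in Z138 and 7 and 0 in JEKO-1. Without BTZ replicate 3 the JEKO-1 counts were 5 and 0, 2 and 4, 7 and 0, 5 and 1, and 8 and 0 in the order of these lists. With mitochondrial genes left out they were 12 and 0, 3 and 1, 12 and 0, 11 and 1, and 14 and 0, so the balance of the B-cell list turned with the scaling. RPS6 was lower by 1.32 in JEKO-1 than in MINO-P (SE 0.22, limma adjusted p = 3.4e-05). This value is on the deposited scale, where the median of all genes tested was -0.41.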

How the data were processed

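Poly(A)-selected RNA was sequenced from 56 libraries, per the labels' protocols. The authors deposited 1 table of log2 values per gene and library, read here as log2(CPM + 1) because the back-transformed columns share one total. The submitters' processing notes name Partek and hg38, with no role; the aligner and counter are not given in the sources used here. 21595 named rows were used and a row naming no gene was left out. Because 76.5% to 87.9% of low values were whole reads (tolerance 0.05 read), no count model was run. limma 3.58.1 (R 4.3.3, intensity trend, treatment as a term, the 2 lines compared) was fitted over all 15225 genes, with Benjamini-Hochberg adjusted p under 0.05 as the call. It was also run on simulated data of the MINO-VR and MINO-P design only, without treatment effects or mitochondrial shifts. That run does not bear on the JEKO-1 and Z138 calls. Segments and medians were computed with Python 3.11.15, pandas 2.3.3 and numpy 2.4.6. The members and gene lists were chosen with earlier results of these data known. Genes named were up to 10 members in each direction for MINO-VR minus MINO-P (mean of at least 5 CPM and one sign in every shared treatment), up to 3 called members in each direction for the other comparisons, the ends of the distal run, and genes of the lists; KANK1, GLIPR2 and the 11 genes without overlap were added after their values were seen. Alternatives were the pseudocount, the filter, 2 other scalings, averaged libraries, each name series alone, the name suffix as a term and each library left out. The start of the distal run with HK names alone is not reported here.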

Additional observations from a re-analysis of the deposited data

Results flagged for a closer look

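One MINO-VR library lay outside the shared treatments, BTZ_S63845, for which MINO-P has no library. Its distal 9q level was 0.545 against the MINO-P mean, above the highest of the 15 MINO-P libraries (0.29), although it entered no fitted comparison. The non-coding rows inside the distal run, which are not members, had a median relative difference of 0.336 between MINO-VR and MINO-P (27 rows, 9 of 9 treatments above 0), against -0.03 for 2291 non-coding rows of other chromosomes. Both values come from the contrast on which the chromosome was selected.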

How the results depend on the processing

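No paired analysis was possible because the labels give no replicate numbers; treatment was a term in every fit with more than 1 treatment. Some library names end in the letter a, whose meaning the labels do not give. With this suffix as a further term, chosen after seeing the data, 238, 192, 259 and 230 members were called in MINO-VR minus MINO-P, JEKO-1 minus MINO-P, Z138 minus MINO-P and JEKO-1 minus Z138. The median difference over all members stayed above 0 in each comparison in the alternatives run. That of 9p did not: it was 0.00 in JEKO-1 minus MINO-P and -0.11 in JEKO-1 minus Z138, and 0.47 and 0.21 without mitochondrial genes. With libraries of MCL names alone, 155 members were called between MINO-VR and MINO-P, against 236. In JEKO-1 minus MINO-P the 205 calls became 134 with a mean of at least 10 CPM (fewer genes tested), 319 without mitochondrial genes and 313 under size factors; in JEKO-1 minus Z138 the 240 calls became 156 with a mean of at least 10 CPM. The window at 130 to 140 Mb, 0.75, was set against 0.336 for non-coding rows of distal 9q. Leaving out 1 library moved the MINO-VR minus MINO-P calls between 216 and 270, the median between 0.34 and 0.38 and distal 9q between 0.66 and 0.74. It moved the medians and calls to 0.12 to 0.35 and 163 to 232 in JEKO-1 minus MINO-P, 0.19 to 0.27 and 251 to 281 in Z138 minus MINO-P, and 0.08 to 0.28 and 217 to 275 in JEKO-1 minus Z138. The JEKO-1 minus MINO-P median, 0.20, was lowest without the YM155 library of either line and highest without MINO-P BTZ_CLF replicate 1. The JEKO-1 minus Z138 median, 0.17, was lowest without the YM155 library of either line and highest without Z138 BTZ replicate 1. Each of these left-out libraries was the only one of its line and treatment, so that treatment dropped out of the mean. In JEKO-1 minus MINO-P the median difference was 0.66 in YM155 and -0.78 in BTZ_CLF. In JEKO-1 minus Z138 it was 0.69 in YM155 and -0.37 in BTZ. Why these treatments differ was not tested. Low members are limited by depth, since 3 reads are worth up to 0.543 CPM.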
